A study of Mus musculus with 6 samples.

Results

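Aminoacyl-tRNA synthetases, the enzymes that join each amino acid to its tRNA, were examined in whole brain of mice that lack TRMT1L (KO) and of wild-type mice (WT), with 3 libraries of each genotype. TRMT1L is related to TRMT1, a guanosine methyltransferase of tRNA. The members were 39 genes chosen by symbol, out of 55450 annotated genes, and each symbol matched 1 GENCODE M21 gene. They comprise 20 cytosolic synthetases, 16 mitochondrial synthetases, whose symbols end in 2, and 3 scaffold proteins. Tarsl2 ends in 2 but belongs to the cytosolic group, and Aimp2 ends in 2 but is a scaffold protein. The list does not hold every synthetase of the mouse. The labels give total brain as the tissue, total RNA above a size limit as the material and biological triplicates as the design. They give no strain, age, sex, allele or litter for either genotype.

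Cytosolic and mitochondrial translation use separate sets of synthetases, both encoded in the nucleus, while Gars and Kars each encode both forms. Several cytosolic synthetases are held together in a large multisynthetase complex by the scaffold proteins Aimp1, Aimp2 and Eef1e1. Many cytosolic synthetase genes are also targets of ATF4, the transcription factor of the integrated stress response, which is made when uncharged tRNA or other stress leads to phosphorylation of the initiation factor eIF2. ATF4 binds with C/EBP partners at short elements known as CARE. In brain and peripheral nerve, variants in genes of both sets are known from neurological disease.

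Counts in genes ranged from 31201119 to 36145961 per library, and all 39 members passed the filter on low counts, with between 178 (a mitochondrial member) and 6134 reads in a library. Trmt1l, the targeted gene, stood at 34.4 ± 1.26 CPM (reads scaled to the same library size, with TMM factors; SD, n = 3) in WT libraries and at 2.87 ± 0.171 CPM in those of KO mice (SD, n = 3), so the libraries carried their labelled genotype. Neuronal markers summed to between 3957 and 4212 CPM in all 6 libraries, and markers of liver, heart, pancreas and kidney to at most 0.255 CPM. Of 21237 genes tested with edgeR (quasi-likelihood, p-values adjusted by Benjamini-Hochberg), 2 genes, or 0.00942%, had an adjusted p-value under 0.05. None of the 39 members was among them, and the lowest adjusted p-value in the family was 0.579, for Cars. Without adjustment 5 members had a p-value under 0.05 in edgeR's test, all higher in KO. That is 12.8% of the family, where 4.54% of all genes tested had such a p-value and were higher, and 3.38% had one and were lower. In DESeq2's Wald test 0 of the 31 members that got an adjusted p-value passed, and 5 of the 39 had an unadjusted p-value under 0.05. The share of all genes with such a p-value in DESeq2's test is not given here. Whole brain mixes many cell types, so fewer cells of a type and less RNA per cell cannot be told apart in any value given here.

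The cytosolic synthetases known as ATF4 targets make up 11 of the 20. This grouping was listed from textbook knowledge, with earlier results of these data known, and is no independent evidence of its direction. Their promoters are shown first, because the CARE element is the site at which ATF4 is known to act. RefSeq windows (GRCm38.p6) from 250 bases before to 50 after the start site were at hand for 30 of the 39 members, and not for Cars, Lars, Nars, Wars, Hars, Rars, Vars, Hars2 and Pars2. The core TGATGNAA was searched on both strands. It was found in the windows of 5 of 7 ATF4 targets (Aars, Gars, Iars, Tars and Yars, but not Eprs and Sars), in 0 of 6 other cytosolic synthetases, 0 of 3 scaffold genes and 0 of 14 mitochondrial synthetases. Among all 32851 windows in the RefSeq table, 3.97% held it. A match is a description of the letters and not a measured binding site.

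The stretches with matches of the 4 ATF4 targets lowest in unadjusted p-value among those with a match are printed 5′ to 3′ on the strand of the gene, ending 30 bases after the start site. Capitals mark the core or its reverse complement. Yars lies at chr4:129189833-129189932 on the plus strand, Iars at chr13:49682060-49682159 on the plus strand, Aars at chr8:111033710-111033871 on the plus strand and Tars at chr15:11399629-11399728 on the minus strand.
Yars: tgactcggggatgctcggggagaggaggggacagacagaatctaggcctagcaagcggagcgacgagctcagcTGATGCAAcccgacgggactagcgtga
Iars: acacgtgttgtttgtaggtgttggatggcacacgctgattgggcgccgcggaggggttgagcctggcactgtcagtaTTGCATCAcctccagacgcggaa
Aars: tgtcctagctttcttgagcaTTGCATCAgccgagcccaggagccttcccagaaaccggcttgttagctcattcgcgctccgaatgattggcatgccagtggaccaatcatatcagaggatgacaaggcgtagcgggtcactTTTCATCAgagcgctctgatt
Tars: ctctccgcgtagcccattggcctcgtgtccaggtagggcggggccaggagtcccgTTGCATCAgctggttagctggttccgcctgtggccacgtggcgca

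The same 8 letters, TTGCATCA, occur on the printed strand of Iars, Aars and Tars, and Yars carries their reverse complement TGATGCAA. Aars has a second match, TTTCATCA, at 10 bases after its start site, and the Gars match, at 30 bases before the start site, has these letters too.

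All 11 ATF4-target synthetases had a log2 fold change (KO over WT) above 0, from 0.032 for Nars to 0.18 for Cars, with a median of 0.10. Over all genes tested the median was 0.00013 and 50.1% of genes lay above 0. On the TPM scale, which divides by a total over all features, the median of all genes was -0.066 (log2, KO minus WT). There 9 of the 11 lay above 0 and Nars and Lars below it, with a median of 0.034, and all 11 lay above the median of all genes. None of the 11 passed the test after adjustment. In edgeR's test 4 of the 11, or 36.4% (Cars, Yars, Eprs and Wars), were higher with an unadjusted p-value under 0.05, against 4.54% of all genes tested. For 5 of the 11, or 45.5%, every KO library lay above every WT library in CPM, where 7.46% of all genes tested did so. On the TPM scale only Eprs of these 5 kept that separation, and Cars, Yars, Wars and Tars overlapped. The share of all genes on that scale is not given here.

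Cars, which charges cysteine tRNA, lies on the minus strand of chromosome 7 (143557230 to 143600090) of GRCm38. It stood at 46.7, 44.8 and 41.6 CPM in WT libraries 1 to 3 and at 49.9, 53.4 and 47.8 CPM in KO libraries 1 to 3. The groups did not overlap, and KO library 2 was the highest. The log2 fold change was 0.18 (SE 0.0624), or 13.5% (edgeR unadjusted p = 0.0132).

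Yars, which charges tyrosine tRNA, lies on the plus strand of chromosome 4 (129189760 to 129219607). Its level was 67.4, 68.6 and 62.2 CPM in the WT libraries and 74.7, 69.7 and 75.3 CPM in the KO libraries. KO library 2 lay just above the highest WT library and the other KO libraries farther above. The log2 fold change was 0.15 (SE 0.0554; edgeR unadjusted p = 0.021).

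Wars, which charges tryptophan tRNA and is also known as an interferon-induced gene, lies on the minus strand of chromosome 12 (108860030 to 108894174). It was measured at 63.4, 60 and 60.8 CPM in WT and 69, 63.5 and 69.5 CPM in KO. As for Yars, KO library 2 was the lowest of the KO libraries and almost met the highest WT library. The log2 fold change was 0.13 (SE 0.0534; edgeR unadjusted p = 0.0299), and 0.10 with GC correction (edgeR unadjusted p = 0.0864).

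Eprs, a fused enzyme that charges glutamate and proline tRNAs and sits in the multisynthetase complex, lies on the plus strand of chromosome 1 (185363044 to 185428360), 33.9 Mb from Trmt1l. It had 151, 144 and 154 CPM in WT and 159, 160 and 167 CPM in KO, with no overlap. The log2 fold change was 0.11 (SE 0.0449; edgeR unadjusted p = 0.0267).

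Tars, for threonine, was at 31.7, 28.5 and 32.8 CPM in WT and 32.8, 33.1 and 33.8 CPM in KO. The groups did not overlap but nearly touched, since WT library 3 and KO library 1 are equal to 3 digits. Its log2 fold change of 0.10 (SE 0.0635) was 0.043 without WT library 2.

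Aars, for alanine, was at 158, 154 and 143 CPM in WT and 163, 156 and 168 CPM in KO, with overlap and a log2 fold change of 0.10 (SE 0.0498). It was 0.058 without WT library 3 and 0.028 when GC content was corrected. Aars also shares 1326 of its exon bases, or 14.3%, with Exosc6 on the same strand.

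Iars, for isoleucine, had 81.3, 78.9 and 76.9 CPM in WT and 86.1, 87.3 and 80.7 CPM in KO, a log2 fold change of 0.10 (SE 0.0501). The remaining 4 were nearer to 0. Gars (glycine) was at 0.068, Sars (serine) at 0.066, Lars (leucine) at 0.037 and Nars (asparagine) at 0.032, each with an SE between 0.048 and 0.0543. In all 4 the KO and WT libraries overlapped, and without KO library 1 Gars was at 0.02, Sars at 0.032 and Lars at 0.013. Lars was at 0.081 without KO library 2. For Nars the KO level was 177 CPM in library 1 and 160 and 161 CPM in libraries 2 and 3, against 160 to 164 CPM in WT, and its log2 fold change was -0.017 without KO library 1.

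**Figure D1:**
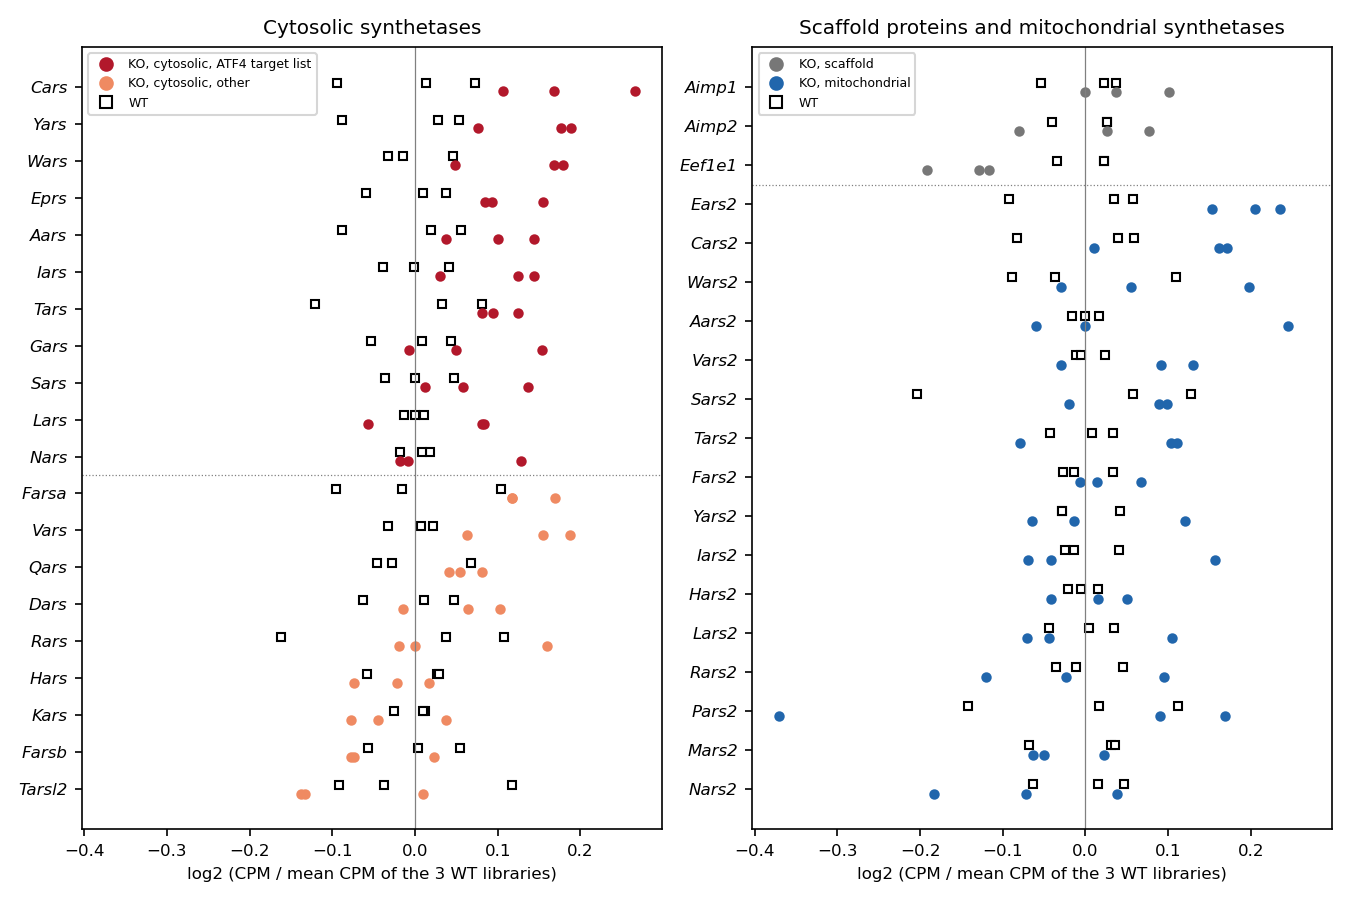
Each row is a gene and each mark a library, placed at the log2 ratio of its CPM to the mean CPM of the 3 WT libraries (open squares WT, filled circles KO); dotted lines part the groups of genes. The KO circles lie right of all WT squares for Cars, Yars, Wars, Eprs, Tars, Vars, Farsa and Ears2 and left of them for Eef1e1.

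The other 9 cytosolic synthetases were split in direction, with 5 above 0 and 4 below it and a median log2 fold change of 0.049. The median was -0.014 without WT library 2 and -0.0042 without KO library 1, so its sign rested on single libraries. On the TPM scale it was -0.014, with 2 of 9 above 0 and 5 of 9 above the median of all genes. For 2 of the 9, or 22.2%, all KO libraries lay above all WT libraries in CPM, against 7.46% of all genes tested. On the TPM scale both of them overlapped between the genotypes.

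Those 2 were Vars and Farsa. Vars, for valine, lies on the plus strand of chromosome 17 (35000987 to 35016322) and had 41.1, 40.7 and 39.6 CPM in WT and 45.1, 42.3 and 46.1 CPM in KO. The log2 fold change was 0.14 (SE 0.0545; edgeR unadjusted p = 0.0276). Vars has the most GC-rich longest transcript of the family (60.9% GC), and its log2 fold change was 0.028 with GC correction (edgeR unadjusted p = 0.592).

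Farsa, the catalytic subunit for phenylalanine, lies on the plus strand of chromosome 8 (84856989 to 84869257). It had 27.9, 30.3 and 26.4 CPM in WT and 30.6, 31.7 and 30.6 CPM in KO, a log2 fold change of 0.14 (SE 0.0641; edgeR unadjusted p = 0.054). Farsb, the partner subunit of the same enzyme, had 43.9, 45.5 and 42.1 CPM in WT and 44.5, 41.5 and 41.6 CPM in KO. Its log2 fold change was -0.043 (SE 0.056), with overlap, so the fitted values of the 2 subunits had opposite signs. That difference was not tested, and Farsb was at -0.014 without WT library 2.

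Among the rest, Qars (glutamine) was at 0.061, Dars (aspartate) at 0.053 and Rars (arginine) at 0.049. Hars (histidine) was at -0.026, Kars (lysine) at -0.027 and Tarsl2, a second threonine enzyme, at -0.083 (SE 0.0709). None of these 6 was separated between genotypes, and their edgeR adjusted p-values lay between 0.8 and 0.925. Tarsl2 had 29.9, 28.8 and 33.3 CPM in WT and 30.9, 28 and 27.9 CPM in KO, and its log2 fold change was -0.018 without WT library 3. With 1 library left out, Qars ranged from 0.04 to 0.10, Dars from 0.024 to 0.084, Hars from -0.053 to -0.0042 and Kars from -0.06 to -0.0034. With GC correction Dars was at 0.12, Rars at 0.085, Farsb at -0.0089 and Tarsl2 at -0.051, and of the ATF4 targets near 0, Lars was at 0.068, Nars at 0.061 and Sars at 0.036.

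**Figure D2:**
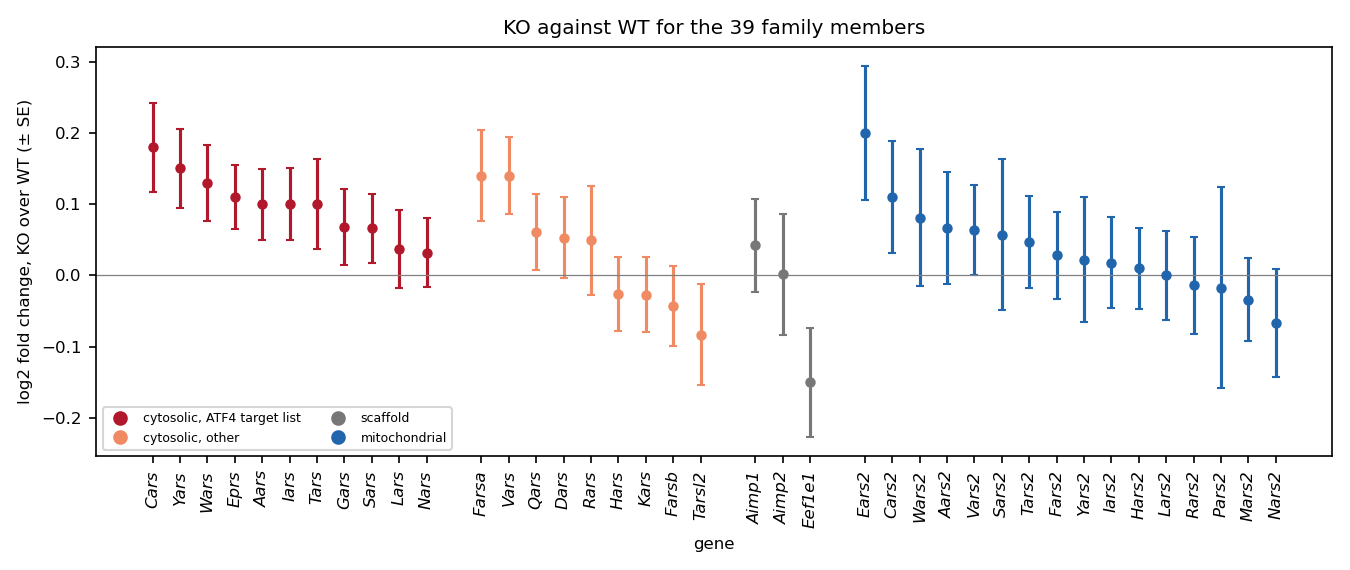
Log2 fold change of KO over WT for each of the 39 genes (points) with its standard error (bars), in the 4 groups of genes. All 11 points of the ATF4 target list lie above 0, from 0.032 to 0.18 (9 of 11 on the TPM scale), while the other groups fall on both sides of it.

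The 3 scaffold genes had log2 fold changes of 0.042 for Aimp1, 0.0013 for Aimp2 and -0.15 for Eef1e1. Aimp1 was at 0.14 with GC correction and at 0.012 without KO library 3. Eef1e1, also known as AIMP3 or p18, lies on the minus strand of chromosome 13 (38644207 to 38659058). It had 13.1, 13.1 and 12.6 CPM in WT and 11.8, 11.9 and 11.3 CPM in KO, and was the 1 member of the 39 (2.56%) for which every KO library lay below every WT library, where 6.97% of all genes tested did so. It did not pass the test (SE 0.0769; edgeR unadjusted p = 0.079 and adjusted p = 0.655). Its value with GC correction was -0.10. Of Aimp2, 29.4% of the exon bases overlap Eif2ak1 on the opposite strand; with both strands counted together its value was -0.039.

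The 16 mitochondrial synthetases had a median log2 fold change of 0.025, with 12 above 0 and 4 below. The median was 0.01 without KO library 3 and 0.014 without WT library 3, and 0.039 without WT library 1. With GC correction it was 0.036, above the 0.028 of the other cytosolic synthetases. On the TPM scale it was -0.042, with 3 of 16 above 0 and 11 of 16 above the median of all genes. None had an unadjusted p-value under 0.05 in edgeR's test. In 1 of the 16 (6.25%), Ears2, all KO libraries lay above all WT libraries in CPM, which is close to the 7.46% of all genes tested. On the TPM scale Ears2 overlapped, with 5.95 TPM in WT library 2 and 5.84 TPM in KO library 3. Ears2, which charges mitochondrial glutamate tRNA, lies on the minus strand of chromosome 7 (122037213 to 122067263). It had 6.93, 7.69 and 7.57 CPM in WT and 8.52, 8.7 and 8.22 CPM in KO, a log2 fold change of 0.20 (SE 0.0943; edgeR unadjusted p = 0.0577). This was the largest fitted difference in the family, on the synthetase with the lowest level per length.

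Cars2 followed at 0.11, with 14.7, 14.9 and 13.5 CPM in WT and 14.4, 16 and 16.1 CPM in KO. The next were Wars2 at 0.081, Aars2 at 0.066, Vars2 at 0.064, Sars2 at 0.057 and Tars2 at 0.047. With 1 library left out, Wars2 ranged from 0.016 to 0.14, Vars2 from 0.031 to 0.11 and Tars2 from 0.013 to 0.11. Aars2 was highest in KO library 3 (32 CPM), with 25.9 and 27 CPM in the other KO libraries and 26.7 to 27.3 CPM in WT. Without that library it was -0.033. With GC correction Aars2, Vars2 and Sars2, whose longest transcripts hold 60%, 58.6% and 60.1% GC, had values of -0.037, -0.025 and -0.044.

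Fars2 (0.028), Yars2 (0.022), Iars2 (0.018), Hars2 (0.01) and Lars2 (0.00013) were within 1 SE of 0, as were Rars2 (-0.014), Pars2 (-0.017), Mars2 (-0.034) and Nars2 (-0.067). Pars2, the proline enzyme, ranged from 5.29 CPM in KO library 2 to 7.69 CPM in KO library 3, and had the largest SE of the family (0.141). Hars and Hars2, which lie head to head on chromosome 18 and share 195 exon bases on opposite strands, had log2 fold changes of -0.026 and 0.01.

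The ATF4 targets were then set beside the other cytosolic and the mitochondrial synthetases library by library. The median log2 ratio of a gene's CPM to its WT mean was 0.12, 0.048 and 0.11 for the ATF4 targets in KO libraries 1 to 3, and 0.032, -0.012 and -0.014 in the WT libraries. For the other cytosolic synthetases it was 0.082, 0.00095 and 0.038 in KO and 0.011, 0.011 and -0.032 in WT, which overlap. For the mitochondrial synthetases it was 0.013, -0.012 and 0.079 in KO and -0.0003, 0.028 and -0.021 in WT, which overlap too. Among the KO libraries, library 2 had the lowest median in all 3 groups. Summed over the 11 genes, the ATF4 targets came to 1031, 1001 and 999 CPM in WT and 1101, 1045 and 1079 CPM in KO, while the other 9 cytosolic genes came to 370, 366 and 363 CPM in WT and 379, 366 and 372 CPM in KO. The difference between the groups was not tested.

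The groups also differ in abundance and so in precision. The median member of the ATF4 list stood at 81.9 CPM, of the other cytosolic genes at 42.1 CPM and of the mitochondrial genes at 23.1 CPM, and standard errors ranged from 0.0449 to 0.0635, 0.0514 to 0.0763 and 0.0567 to 0.141 on the log2 scale. Median GC content of the longest transcripts was 50.3%, 47.3% and 49.3%. With a narrower target list of 6 genes (Aars, Cars, Gars, Nars, Sars and Wars) the median of the ATF4 targets was 0.082, and with Hars, Rars and Vars added to the 11 it was 0.10. The 6 cytosolic genes outside that broader list had a median of 0.013.

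Other genes of the ATF4 pathway, 31 genes that include transcription factors, amino acid transporters and enzymes of serine and asparagine synthesis, were farther from 0. Their median log2 fold change was 0.22, with 29 of 31 above 0. None passed after adjustment in edgeR's test, 18 were higher and 1 (Vldlr, a lipoprotein receptor, chosen after its value was seen) lower with an unadjusted p-value under 0.05, and 14 lay above and 1 below WT in every KO library. Over all genes tested 4.54% were higher and 3.38% lower with such a p-value, and 7.46% lay above and 6.97% below WT in every KO library. With no filter on low counts, 9 of the 31, with Atf4 (adjusted p = 0.0147) and Trib3 (adjusted p = 9.34e-05) among them, passed edgeR's test after adjustment, where 0.8% of the 37245 genes in that fit did. In that fit edgeR's adjusted p-value of Trmt1l was 2.57e-270, against 6.95e-10 in the main fit, at the same log2 fold change of -3.58. The size of its p-values thus hangs on the filter, and the 9 calls are not taken as a result. Trib3 overlapped between the genotypes. By library the median log2 ratio of the 31 genes was 0.18, 0.15 and 0.33 in KO libraries 1 to 3 and 0.036, -0.012 and -0.0028 in WT. KO library 3 stood highest for these genes, whereas KO library 1 did for the ATF4-target synthetases. The list was drawn up with earlier results of these libraries known and is no independent evidence of its direction.

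Atf4 itself had 61.2, 57.7 and 56.1 CPM in WT and 75.6, 65.1 and 64.9 CPM in KO, a log2 fold change of 0.23 (SE 0.0665) that was 0.15 without KO library 1. Ddit3, a transcription factor induced by ATF4, had 8.44, 7.97 and 7.11 CPM in WT and 8.12, 10.9 and 10.6 CPM in KO, with overlap (log2 fold change 0.33, SE 0.125). The symbol belongs to more than 1 GENCODE gene, and the protein-coding gene ENSMUSG00000025408.15 was used. Trib3, a pseudokinase that damps ATF4, had 0.742, 0.51 and 0.456 CPM in WT and 0.604, 0.832 and 2.85 CPM in KO. Its log2 fold change of 1.32 (SE 0.519) was 0.32 without KO library 3.

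Xpot, which exports tRNA from the nucleus, had 88.1, 88 and 95.9 CPM in WT and 95.4, 91.6 and 95.8 CPM in KO (log2 fold change 0.056, SE 0.0505), which was 0.10 without WT library 3, 0.036 without WT library 2 and 0.089 with GC correction. Asns, the asparagine synthetase and a classical target of amino acid shortage, had 66.1, 65.6 and 67.3 CPM in WT and 75.3, 65.3 and 67.2 CPM in KO. Only KO library 1 was above WT for Asns, and the log2 fold change of 0.062 (SE 0.0587) was -0.0036 without it. Nars, which uses the amino acid that Asns makes, had the same shape, with KO library 1 alone above the WT range.

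**Figure D3:**
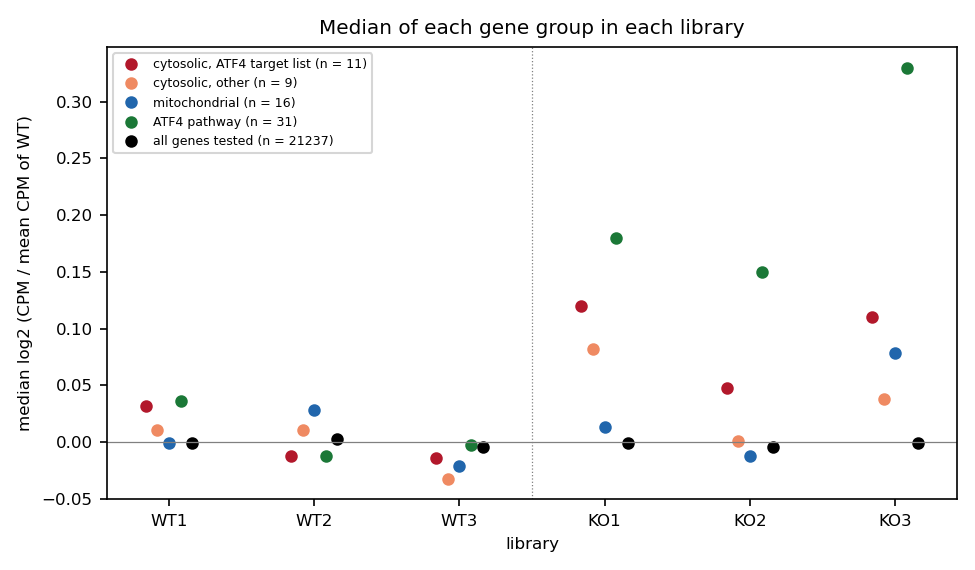
Median over each gene group of the log2 ratio of CPM to the WT mean, 1 point per group and library. The ATF4 targets among the synthetases lie at 0.12, 0.048 and 0.11 in KO libraries 1 to 3 and the other ATF4 pathway genes at 0.18, 0.15 and 0.33, while all genes tested stay near 0.

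Accessory genes of aminoacylation, 14 genes for proofreading of charged tRNA, peptidyl-tRNA hydrolysis, the mitochondrial glutamine pathway, selenocysteine tRNA and delivery of charged tRNA to the ribosome, had a median log2 fold change of 0.03, with 9 above 0 and 5 below. In 1 of the 14, Eef1a2, all KO libraries lay above all WT libraries, a share close to the 7.46% of all genes tested. Eef1a2, the elongation factor form of neurons and muscle, had 680, 643 and 700 CPM in WT and 710, 747 and 728 CPM in KO (log2 fold change 0.11, SE 0.0425; edgeR unadjusted p = 0.0231). Its widely expressed paralogue Eef1a1 was at 0.058 and overlapped.

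Levels were compared between genes per length, as TPM (reads per kb of exon scaled to a fixed total in each library), which serves here for levels, shares and ratios between genes, while each gene was compared between genotypes in CPM. The order below rests on lengths of all exons together. Nars was the most abundant cytosolic synthetase at 144 ± 2.64 TPM in WT (SD, n = 3), followed by Gars at 114 ± 5.96 and Sars at 91.5 ± 0.171. Sars took that place by the mean of all 6 libraries (91.6 TPM, with Hars at 90.1). In WT Hars, at 92.9 ± 1.43 TPM, stood slightly above Sars in every library. At the other end stood Tarsl2 at 17.6 ± 0.933, Tars at 20.4 ± 0.979 and Qars at 24.4 ± 1.67 TPM in WT. Qars was in that place by the mean of all 6 libraries (24.3 TPM, with Farsa at 24.7), and Farsa, at 24.1 ± 2.31 TPM in WT, did not differ from it beyond their spread. With the length of the longest transcript, Tars was lowest (24.3 TPM, mean of all 6 libraries), Farsa (27.4) came below Tarsl2 (28.9), and Qars (42.6) was no longer among the lowest. Among the mitochondrial synthetases Rars2 led at 35 ± 1.89 TPM, then Hars2 at 25.6 ± 1.01 and Iars2 at 23.3 ± 0.733, and Ears2 (5.57 ± 0.368), Wars2 (6.66 ± 0.641) and Cars2 (7.7 ± 0.581) were lowest. With the longest transcript Rars2 still led (41.2 TPM, mean of all 6 libraries), but Iars2 (30.4), Tars2 (29.4) and Lars2 (26.5) came before Hars2 (26.2), and Cars2 (14.7) was no longer among the lowest. The median was 40.8 ± 1.65 TPM over cytosolic and 12.2 ± 0.0645 TPM over mitochondrial members in WT.

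Mitochondrial members held 18.1%, 18.7% and 18.2% of all synthetase TPM in WT and 17.6%, 18.1% and 18.3% in KO, so the genotypes overlapped. The ATF4 targets held 53.6%, 53.1% and 53.3% in WT and 55%, 54% and 54.2% in KO, where every KO library lay above every WT library and the means differed by 1.09 percentage points.

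Cytosolic and mitochondrial enzymes for the same amino acid were paired in 16 comparisons, some sharing a gene. In 15 of them the cytosolic gene had the higher TPM in every library, and the WT mean ratio ranged from 1.08 for Tars over Tars2 to 14.1 for Nars over Nars2, with a median of 3.41. Wars exceeded Wars2 10.4-fold and Sars exceeded Sars2 8.99-fold in WT, whereas Rars exceeded Rars2 1.29-fold and Vars exceeded Vars2 1.61-fold. Ratios depend on the length assigned to each gene: with the longest transcript in place of all exons, the mean of all 6 libraries was 0.827 for Tars over Tars2 and 17.1 for Eprs over Ears2, whose ratio over all exons was 5.77 in WT. In 1 of the 16 pairs, Vars over Vars2, the ratio was higher in every KO library (1.7 ± 0.0232, against 1.61 ± 0.0349 in WT; SD, n = 3), and in 15 the genotypes overlapped. That is 6.25% of the pairs, near the 7.46% of single genes that lay above WT in every KO library. With GC correction the log2 fold changes of Vars and Vars2 were 0.028 and -0.025.

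**Figure D4:**
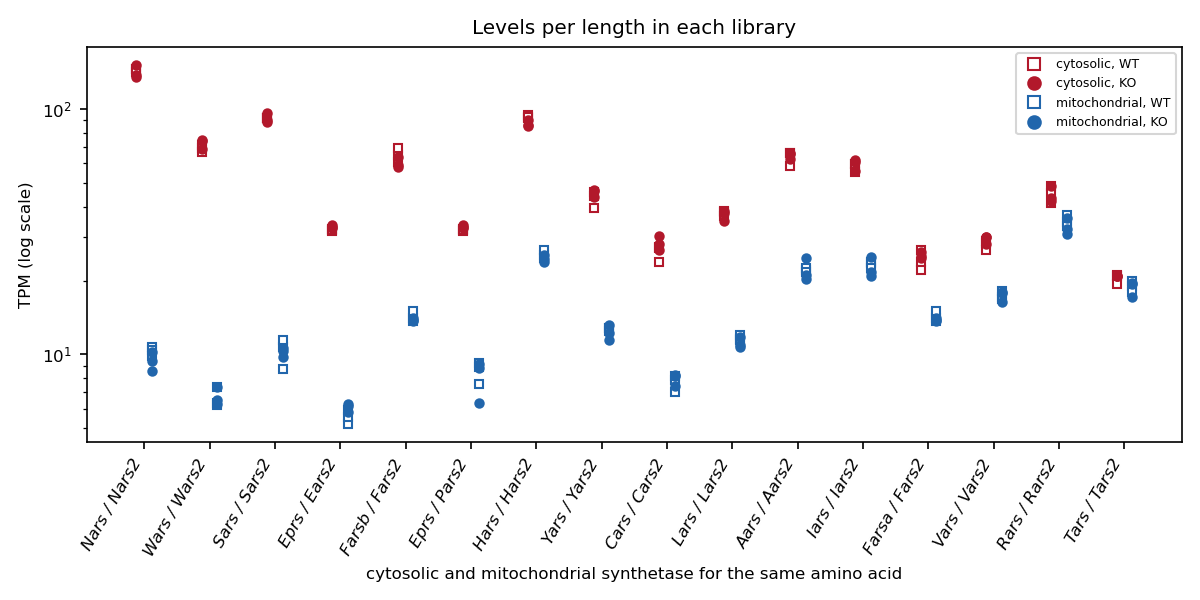
TPM on a log axis of the cytosolic (red) and mitochondrial (blue) synthetase for the same amino acid in each library, WT as open squares and KO as filled circles, ordered by their ratio. Nars and Nars2 lie farthest apart, with a WT mean ratio of 14.1, and Tars and Tars2 nearly coincide, at 1.08.

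Markers of other cell types were measured beside these differences, as whole lists. Choroid plexus markers had log2 fold changes above 0 for 6 of 6 genes and summed to 369, 313 and 355 CPM in WT and 446, 436 and 373 CPM in KO. Oligodendrocyte markers were below 0 for 6 of 6 and summed to 4498, 4167 and 4074 CPM in WT and 4197, 3854 and 3495 CPM in KO. Blood markers were above 0 for 5 of 5 and summed to 116, 109 and 149 CPM in WT and 247, 98.3 and 181 CPM in KO. Astrocyte markers were above 0 for 4 of 6 (median 0.017) and summed to 1747, 1674 and 1725 CPM in WT and 1704, 1747 and 1817 CPM in KO. Among them Aldh1l1 lay above and Aqp4 below WT in every KO library, and Gfap, a marker of reactive astrocytes, was at 248 CPM in KO library 3 and at 115 to 140 CPM in the other 5 libraries. Microglia markers were above 0 for 3 of 6 (median -0.03) and summed to 152, 187 and 167 CPM in WT and 150, 146 and 175 CPM in KO, with P2ry12 below WT in every KO library (log2 fold change -0.34). Endothelial markers were above 0 for 3 of 6 (median 0.013) and summed to 223, 231 and 232 CPM in WT and 221, 211 and 244 CPM in KO. Neuronal markers were above 0 for 3 of 6 (median 0.028). None of these markers passed after adjustment in edgeR's test. The part of these differences in the synthetase values was not tested. Of the 39 members 5 lie on chromosome 1 with Trmt1l, and the nearest, Dars, is 23 Mb away.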

How the data were processed

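The authors deposited 1 table of raw read counts per gene for each library, whole numbers that are not normalized. Per the submitters' processing notes, cutadapt 1.9.1 and STAR 2.7.0f were used; the genome build and annotation are not given in the sources used here. The gene identifiers are exactly those of GENCODE M21 (GRCm38), which supplied names, places, exon lengths and GC content. Of the stranded count columns, the one that held 94.6% to 94.8% of the counts on both strands was used. Rows that name no gene, 57.7% to 60.2% of reads, were left out.

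Counts were fitted in R 4.3.3 with edgeR 4.0.16 (filterByExpr, TMM, estimateDisp, quasi-likelihood test with its installed defaults), genotype as the sole factor, and Benjamini-Hochberg adjustment over 21237 genes. CPM is the count over the TMM-scaled library size, and TPM the count per kb of exon scaled to the same total in each library. The SE is the absolute log2 fold change divided by the square root of F. limma 3.58.1 and DESeq2 1.42.0 served as alternatives, beside another count column, scaling and filter, GC correction, a replicate block and leaving out each library. The test was checked on simulated data: the size of simulated fold changes was recovered without marked bias, few small ones passed, and false calls made up more than the nominal share. Nothing states that the libraries came from separate animals beyond "biological triplicates", so p-values measure the spread between these libraries. Replicate pairs of a group differed by more than sampling noise (chi-square per degree of freedom from 4.08 to 8.69).

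The members and lists were chosen with earlier results of these data known. The rule for named genes accounts for all 39 members by log2 fold change. It gives CPM per library for members with an unadjusted p-value under 0.05 or groups that do not overlap, and TPM for the 3 highest and 3 lowest members of the cytosolic and of the mitochondrial group. From the ATF4 pathway it gives Atf4, Ddit3, Trib3, Asns and Xpot, and accessory genes whose groups do not overlap. Other members with values per library (Aars, Iars, Nars, Farsb, Tarsl2, Aars2, Cars2 and Pars2), and Vldlr, Eef1a1, Gfap, Aldh1l1, Aqp4 and P2ry12, were chosen after their values were seen. Promoters are from RefSeq (GRCm38.p6).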

Additional observations from a re-analysis of the deposited data

How the results depend on the processing

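None of the 39 members passed after adjustment in edgeR's test or under any of the 16 alternatives that refit the genes, though DESeq2's Wald test gave no adjusted p-value for 8 of them, Ears2 included; members with an unadjusted p-value under 0.05 numbered from 1 (without WT library 3) to 6, all higher in KO. Genes changed in all numbered 2, against 298 with no filter on low counts, 25 with DESeq2's Wald test, 4 with the replicate block and 2 to 5 when 1 library was left out (5 without KO library 3). Libraries with the same replicate number did not deviate together (correlations of 0.0402, -0.0314 and -0.0581), and the block changed no call of a member. Such correlations cannot show that the libraries were unpaired, and the labels do not say. The ATF4-target median stayed between 0.082 and 0.12 and the mitochondrial one between 0.01 and 0.039 under the alternatives that kept CPM or a model on counts. On the TPM scale, an alternative chosen after seeing the data that moved the median of all genes to -0.066, they were 0.034 and -0.042, and the median of the other cytosolic synthetases was -0.014. The median of the other cytosolic synthetases ranged from -0.014 to 0.063 with 1 library left out and was 0.013 outside the broader target list. Of 616 member values 572 kept their sign. Signs turned for Aimp2 (-0.039 unstranded, -0.0091 with total counts, -0.0039 with a mean count of at least 50, -0.00097 with limma-voom) and for Lars2 (-0.0004 with DESeq2 size factors and its Wald test, -0.0098 with total counts, -0.005 with a mean count of at least 50, -0.0016 with limma-voom, -0.0015 with the replicate block), and for Hars2 with total counts (-0.00013). With GC correction, without and then with the replicate block, they turned for Kars (0.0022, 0.0018), Aimp2 (-0.04, -0.041), Aars2 (-0.037, -0.04), Lars2 (-0.0067, -0.0077), Mars2 (0.05, 0.051), Rars2 (0.035, 0.034), Sars2 (-0.044, -0.039) and Vars2 (-0.025, -0.026). Leaving out 1 library gave ranges across 0 for Nars (-0.017 to 0.058), Rars (-0.024 to 0.11), Aimp2 (-0.036 to 0.044), Aars2 (-0.033 to 0.13), Hars2 (-0.011 to 0.033), Iars2 (-0.058 to 0.06), Lars2 (-0.055 to 0.033), Pars2 (-0.12 to 0.13), Rars2 (-0.072 to 0.035), Sars2 (-0.034 to 0.12), Yars2 (-0.03 to 0.062) and Asns (-0.0036 to 0.10). The cause was not tested. Standard errors of 0.0449 to 0.141 on the log2 scale limit what could be seen.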
